A study of Mus musculus with 2 samples.

Results

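Genes for histone-modifying enzymes and chromatin remodellers were examined for Lef1 occupancy in mouse CD4+ T cells. The members were the protein-coding genes in RefSeq GRCm38.p6 whose symbol starts with Kmt, Kat, Kdm, Hdac, Chd or Arid followed by a digit, or with Smarc. They numbered 78 of 21887 such genes on the main chromosomes. Writers (lysine methyltransferases, Kmt, and lysine acetyltransferases, Kat) numbered 16 and erasers (lysine demethylases, Kdm, and histone deacetylases, Hdac) 29. Remodellers, which are the Chd and Smarc genes with Arid1a, Arid1b and Arid2, numbered 26, and the other ARID genes 7.

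Occupancy came from chromatin immunoprecipitation followed by sequencing (ChIP-seq) with the anti-Lef1 antibody C18A7. One library was made from conventional CD4+ T cells (TCRb+, CD25-, GFP-negative per the design text) of the spleens of wild-type C57BL/6 mice aged 8 to 10 weeks. The other was made from Lef1-deficient TCRb+ CD4+ T cells of CD4-Cre+ Lef1 fl/fl mice, in which Cre driven by the CD4 promoter deletes Lef1 from the thymus onward. It served as the background of the peak calls and has no peak list of its own. Its age, the number of animals behind each library and the share of cells that had lost Lef1 are not stated in the labels. The labels name both sources as naive CD4 T cells, but the gates differ in CD25, and a peak list carries no expression by which the cell type could be checked.

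The deposited list held 2052 peaks with a median width of 79 bp. Each has a score deposited by the authors, the −log10 p of its peak call. Scores ran from 4.01 to 38.17 with a median of 4.40, a value that 828 peaks shared. There was 1 library of each kind, so no value here has a replicate check and no test between groups was possible. With the read depth unknown, the lack of a peak says only that no call at that gene passed the threshold of this list.

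Lef1 binds DNA through an HMG box that recognises a core of CAAAG, most strongly as ATCAAAG. With β-catenin it recruits coactivators that include the acetyltransferases p300 and CBP and the remodelling ATPase Brg1, encoded by Smarca4. With Groucho corepressors it recruits histone deacetylases. Writers place methyl or acetyl groups on histone tails, erasers remove them, and remodellers use ATP to slide or evict nucleosomes. ARID proteins bind DNA through a shared domain, and several are subunits of the BAF and PBAF remodelling complexes.

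The sequence under a member peak was available where the peak lay in a RefSeq promoter window, which runs from 250 bases before to 50 after an annotated start. The table holds 59 of the 78 members, with 82 windows. Of the member peaks, only that of Kmt2d lay wholly inside a window of its own gene. It is shown with ATCAAAG in capitals, beside the 70 bases of a Kdm3a peak that fell in a window and hold no CAAAG on either strand. Both are on the minus strand of GRCm38.p6 and read 5′ to 3′ towards the gene. The stretch of Kmt2d lies at chr15:98871250-98871367 and that of Kdm3a at chr6:71633098-71633167.
Kmt2d: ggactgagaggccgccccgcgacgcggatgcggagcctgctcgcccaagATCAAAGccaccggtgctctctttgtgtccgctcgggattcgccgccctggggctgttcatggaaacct
Kdm3a: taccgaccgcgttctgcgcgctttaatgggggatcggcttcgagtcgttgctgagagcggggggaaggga

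In the Kmt2d stretch the motif, read towards the gene, begins 113 bases before the annotated start. Its low-coordinate end, the last base in that reading, is at 98871312 on chromosome 15. ATCAAAG or its complement CTTTGAT was in 1 of the 82 member windows, that of Kmt2d (1.22%, 95% exact Clopper-Pearson interval 0.0309 to 6.61%), against 3.22% of the 21263 windows of protein-coding genes. Within the same 118 positions before the start, 162 to 45 bases upstream, 1.32% of protein-coding windows held it. Of the 260 windows, of coding and non-coding genes, that held the centre of any Lef1 peak, 14.6% had ATCAAAG (exact interval 10.6 to 19.5%), against 3.64% of the 32591 that held none. The shorter TCAAAG or CTTTGA was in 6 member windows (7.32%, 2.73 to 15.2%), those of Kmt2d, Smarca4, Kdm4c, Kdm5c, Kdm8 and Kat2b, against 14.4% of protein-coding windows. CAAAG or CTTTG, contained in both longer motifs, was in 41.5% of member windows (30.7 to 52.9%) and 51.2% of protein-coding ones. All 3 member intervals include the share of protein-coding windows. The intervals treat windows as independent, although the 82 member windows belong to 59 genes and the 260 with a peak centre to 240. Member windows were richer in G and C, with a median of 61.8% against 56.3% for protein-coding windows, and the part of base composition in these shares was not tested.

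Lef1 peaks lay at 14 of the 78 chromatin genes. A peak counted for the gene whose body was nearest to its centre, among protein-coding genes within 50 kb. The share was 17.9% (95% exact Clopper-Pearson interval 10.2 to 28.3%), against 6.68% of all protein-coding genes with a peak. The genes were the writers Kmt2d, Kmt2e and Kat6a, the erasers Kdm3a, Kdm3b and Kdm4c, the remodelling genes Arid1a, Arid1b, Arid2, Smarca4 and Chd1, and Arid3b, Arid4a and Arid5b. Together they held 20 peaks, with 2 peaks at each of 6 genes and 1 at each of 8. Intervals given here cover counting error only.

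The Arid family stood highest, with a peak at 6 of 10 genes (60%, exact interval 26.2 to 87.8%). Without it 8 of 68 members had a peak (11.8%, 5.22 to 21.9%), an interval that includes the 6.68% of all genes. Taking out the highest family lowers the share of the rest, and neither interval allows for that choice. By class, 3 of 16 writers (18.8%, 4.05 to 45.6%), 3 of 29 erasers (10.3%, 2.19 to 27.4%), 5 of 26 remodellers (19.2%, 6.55 to 39.4%) and 3 of 7 other ARID genes (42.9%, 9.9 to 81.6%) had a peak. The intervals of the 4 classes overlap, and those of all but the other ARID genes include the share of all genes. By family the counts were 2 of 8 Kmt, 1 of 8 Kat, 3 of 18 Kdm, 0 of 11 Hdac, 1 of 10 Chd and 1 of 13 Smarc genes. The remodellers with a peak outside Chd and Smarc were Arid1a, Arid1b and Arid2, placed in that class as BAF and PBAF subunits. The families hold few genes: the 0 of 11 at Hdac has an upper bound of 28.5%, well above the share of all genes.

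**Figure D1:**
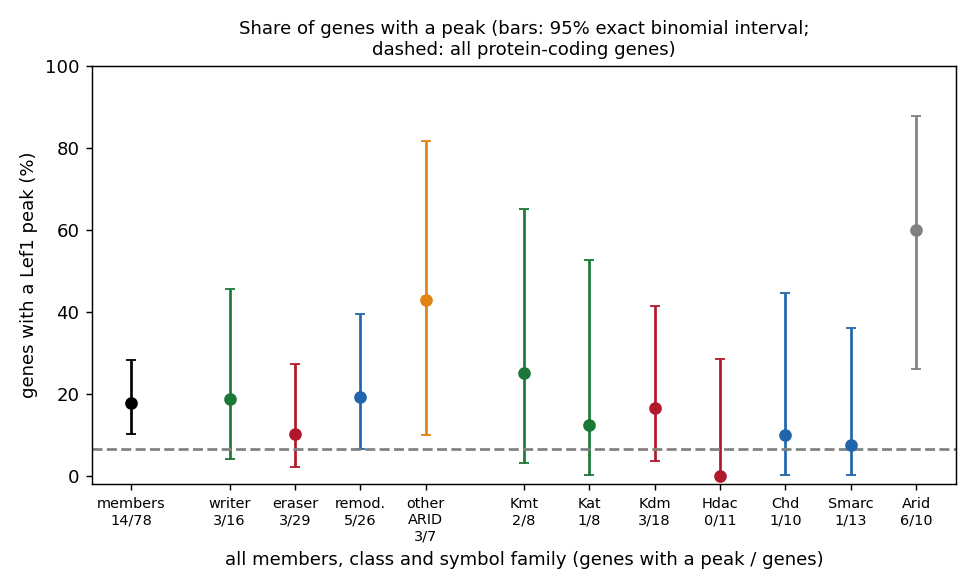
Share of genes with a Lef1 peak (y axis, %) for all members, the 4 classes and the 7 symbol families (x axis, with genes with a peak over genes); bars are 95% exact binomial intervals and the dashed line is all protein-coding genes (6.68%). The Arid family stands at 60% and Hdac at 0%, and the intervals of most families span the dashed line.

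Chromatin genes are long, and a long gene has more room for a peak. The median gene body of the members was 51.2 kb against 17.2 kb for all genes. The median territory, all positions within 50 kb that are nearest to that gene, was 81.1 kb against 45.1 kb. Per length, members held 2.3 peaks per Mb of territory (95% exact Poisson interval 1.41 to 3.56), and all protein-coding genes 0.989. Genes were split into 4 equal groups by territory. In the group with the largest, over 90.9 kb, 11 of 36 members had a peak (30.6%, exact interval 16.3 to 48.1%) against 12.8% of all genes there. In the other groups the counts were 2 of 19, 1 of 15 and 0 of 8 from larger to smaller territories, where 7.18%, 4.42% and 2.37% of all genes had a peak. The Arid genes held 6.74 peaks per Mb (3.08 to 12.8), and the other members together 1.5 (0.747 to 2.68). The latter interval includes the density of all genes. Arid was again set apart as the highest family, a choice for which neither interval allows.

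**Figure D2:**
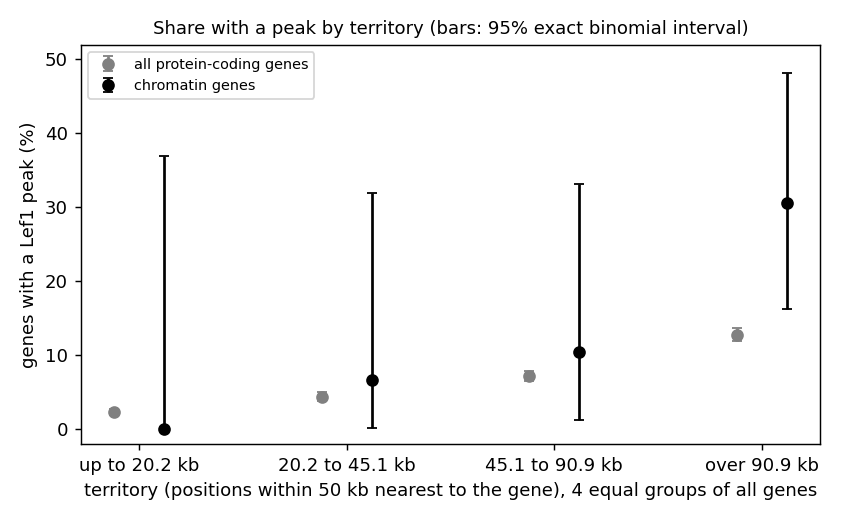
Share of genes with a Lef1 peak (y axis, %) in 4 equal groups of all protein-coding genes by territory (x axis, kb), for all genes (grey) and chromatin genes (black), with 95% exact binomial intervals. In the group above 90.9 kb the shares are 30.6% and 12.8%; in the others the intervals of the chromatin genes include the share of all genes.

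Among remodelling genes, the 3 that encode the ARID subunits of BAF and PBAF each had a peak. Of all protein-coding genes, 6.68% had one. Arid2, a subunit of PBAF, had the highest score of any member, 8.26, at chromosome 15, 96344782 to 96345245. That peak was 464 bp wide, lay 57.5 kb inside the gene from its low-coordinate end and ranked 69 of 2052. It was the only member peak among the 97 of the list that scored at least 8.

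Arid1a and Arid1b encode alternative subunits of BAF. Arid1a had a peak of 6.28 (chromosome 4, 133754356 to 133754465) and one of 4.09 (133751944 to 133752018), 2.34 kb apart. The stronger one lay 426 bases upstream of the second of 2 annotated starts. Its centre was 2.36 kb inside the gene from the high-coordinate end. Both peaks are thus at the 5′ part of a gene on the minus strand.

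Arid1b had a peak of 4.25 at its low-coordinate end (chromosome 17, 4994327 to 4994436), 692 bases upstream of the start in the promoter table. A second, of 4.74, lay 144 kb downstream of that start, deep in the body (5139062 to 5139199). At 353 kb, Arid1b is the longest member with a peak.

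Smarca4 encodes Brg1, an ATPase of the same complexes and a partner of β-catenin at its targets. Its peak was one of the weakest, 4.14, and lay 10.6 kb downstream of the annotated start (chromosome 9, 21626696 to 21626757). The other ATPase gene, Smarca2, had none, and neither did the core subunit genes Smarcb1, Smarcc1, Smarcc2, Smarcd1, Smarcd2, Smarcd3 and Smarce1.

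Chd1, a remodeller that binds methylated lysine 4 of histone H3, had a peak of 4.40 over its low-coordinate end (chromosome 17, 15704964 to 15705021). The start of the non-coding gene 5830433I10Rik lay 384 bases from its centre, so the peak has more than 1 neighbouring start. The other Chd genes, Chd1l and Chd2 to Chd9, and the remaining Smarc genes, Smarca1, Smarca5, Smarcad1 and Smarcal1, had no peak.

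Among writers, Kmt2d had the highest score, 5.48. It encodes a methyltransferase that places single methyl groups on lysine 4 of histone H3 at enhancers. Its peak is the one shown above, centred 104 bases upstream of the annotated start. It lies 2.77 kb inside the annotated gene body, which extends further upstream than the start in the table.

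Kmt2e, a writer here by its symbol alone, encodes the SET and PHD domain protein MLL5. This gene had a peak of 4.40 inside its low-coordinate end at 1.39 kb (chromosome 5, 23434357 to 23434503). The start of the non-coding gene 5031425E22Rik lay 1.09 kb from it. A second Kmt2e peak, of 4.08, lay 46.1 kb outside the gene, inside that non-coding gene and only just nearer to Kmt2e than to Gm17434 at 47.3 kb. Kat6a, the acetyltransferase MOZ of blood stem cells, had a peak of 4.31 just inside its low-coordinate end, at 106 bases (chromosome 8, 22859493 to 22859604). Writers with no peak were Kmt2a, Kmt2b, Kmt2c, Kmt5a, Kmt5b, Kmt5c, Kat2a, Kat2b, Kat5, Kat6b, Kat7, Kat8 and Kat14.

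Among erasers, both Kdm3 genes had peaks at a gene end. They encode demethylases of lysine 9 of histone H3. Kdm3a had neighbouring peaks of 4.35 and 4.25 (chromosome 6, 71633098 to 71633272 and 71633337 to 71633404), separated by 64 bp and centred 268 and 454 bases upstream of its start. They can be parts of a single site. Kdm3b had a peak of 4.99, the highest of the erasers, 138 bases outside its low-coordinate end (chromosome 18, 34776820 to 34776921). The gene Fam53c lay 3.11 kb from that peak. The third relative, Jmjd1c, is not a member by symbol and had no peak.

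Kdm4c, a demethylase of trimethylated lysine 9 and lysine 36, had 2 peaks that both scored 4.40. One lay 82.8 kb downstream of its start, inside the gene (chromosome 4, 74334657 to 74334731), and the other 29.8 kb beyond the far end (74435636 to 74435714). The remaining 15 Kdm genes had no peak: Kdm1a, Kdm1b, Kdm2a, Kdm2b, Kdm4a, Kdm4b, Kdm4d, Kdm5a, Kdm5b, Kdm5c, Kdm5d, Kdm6a, Kdm6b, Kdm7a and Kdm8. None of Hdac1 to Hdac11 had one. Their territories add up to 1.91 Mb, for which the density of all genes would give 1.89 peaks, and the upper bound of the density at Hdac, 1.93 per Mb, lies above that of all genes.

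The other ARID genes with peaks all scored 4.40, the score shared most often in the list. Arid4a, which encodes an associate of the Sin3 deacetylase complex, had 2 peaks 6.23 kb apart, 26.8 and 33.3 kb inside the gene (chromosome 12, 71041842 to 71041973 and 71048206 to 71048504). Arid5b, a DNA-binding partner of the demethylase Phf2, had a peak 39.5 kb downstream of its start (chromosome 10, 68239171 to 68239360). Arid3b had one 1.1 kb downstream of the nearer of its 2 starts (chromosome 9, 57835309 to 57835464). Arid3a, Arid3c, Arid4b and Arid5a had none.

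**Figure D3:**
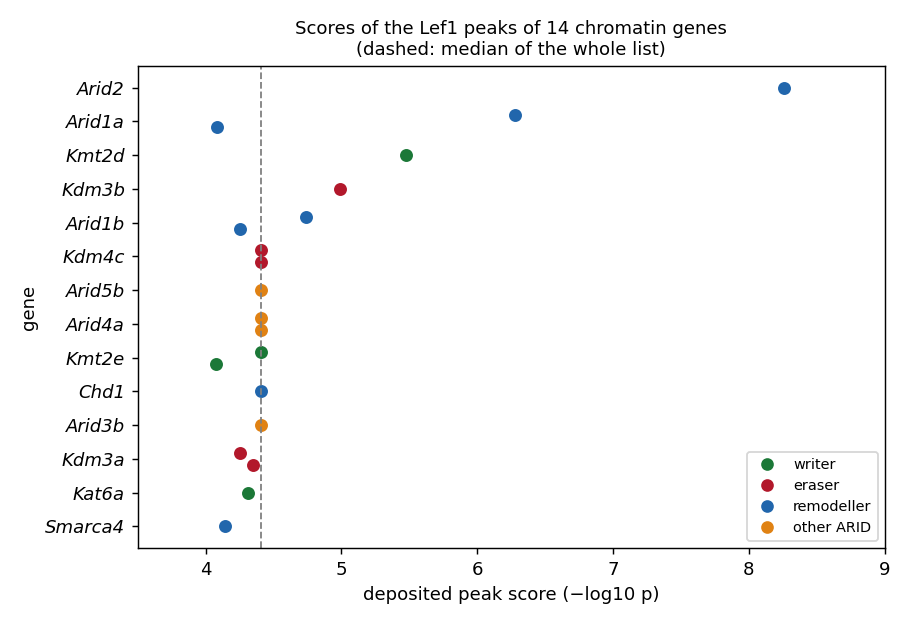
Deposited scores (x axis, −log10 p) of the 20 Lef1 peaks at 14 chromatin genes (y axis), 1 point per peak, coloured by class; the dashed line is the median of the whole list (4.40). Arid2 (8.26), Arid1a (6.28) and Kmt2d (5.48) stand apart, and 9 genes have no peak above the median.

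Of the 20 member peaks, 8 had the score 4.40, 7 lay below it and 5 above. Of the members, 5 of 78 (6.41%) had a peak above the median score, against 2.28% of all protein-coding genes. They were Arid2, Arid1a, Kmt2d, Kdm3b and Arid1b. No interval was computed for this share of members, which rests on 5 genes. The share of peaks above the median was 25% (exact interval 8.66 to 49.1%) at members and 32.6% (30.4 to 35%) at the 1648 peaks of other genes, which lies within the interval of the members. Member peaks had a median width of 111 bp, against 81 bp at other genes, with a range of 55 to 464 bp.

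Peaks lay both at gene ends and deep inside. Of the 20, 15 lay inside the member's body (75%, exact interval 50.9 to 91.3%), against 61.9% of the assigned peaks of other genes. Within 1 kb of a gene end lay 6 (30%, 11.9 to 54.3%), against 24.9%. These were at Kdm3a, Kdm3b, Arid1b, Chd1 and Kat6a. A further 7 lay inside a gene more than 10 kb from either end, at Arid1b, Arid2, Arid4a, Arid5b, Kdm4c and Smarca4. Both intervals include the value at other genes.

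With starts from the promoter table, 4 of 59 members had a peak centre within 1 kb of an annotated start (6.78%), against 2.29% of the 17492 protein-coding genes in it. The 4 were Kmt2d, Kdm3a, Arid1a and Arid1b, a writer, an eraser and 2 BAF subunits. The share rests on these 4 genes alone, without an interval. At all 4 the peak nearest to the start lay upstream of it, by 104, 268, 426 and 692 bases. At Kmt2d, Arid1a and Arid1b that peak was still inside the annotated gene body, which begins further upstream than the start used. Only at Kdm3a was it outside the body.

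**Figure D4:**
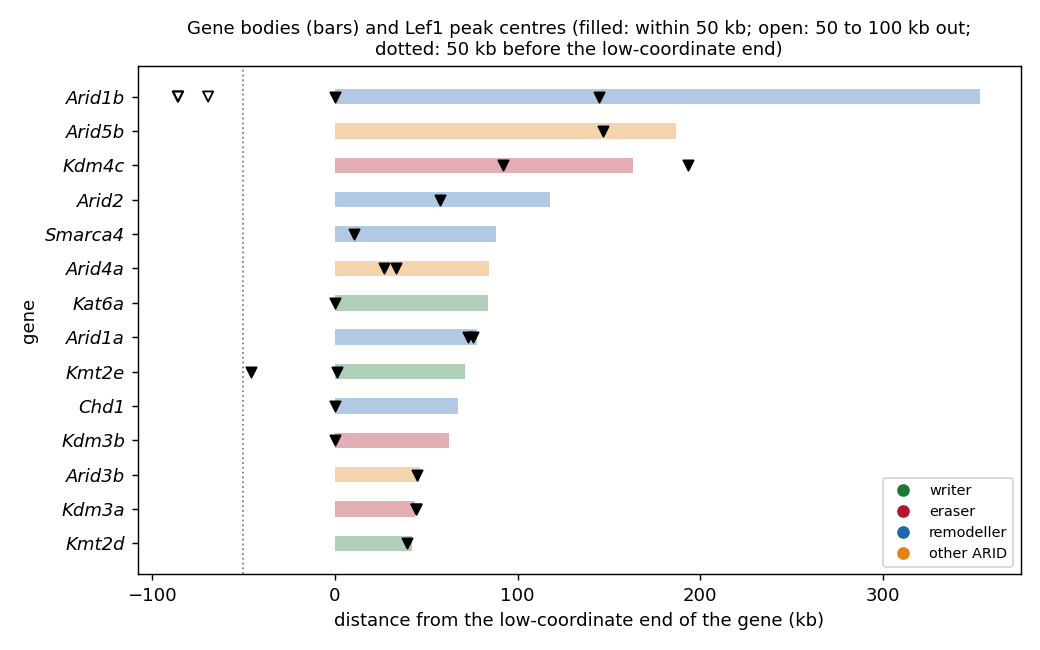
Gene bodies (bars, coloured by class) of the 14 chromatin genes with a Lef1 peak, with peak centres as triangles at their distance from the low-coordinate end (x axis, kb); filled triangles are within 50 kb, open ones 50 to 100 kb out. Peaks of Chd1, Kat6a, Kdm3a and Kdm3b sit at a gene end, while those of Arid2, Arid5b and the second of Arid1b lie deep inside.

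At a limit of 100 kb only Chd9 would join the members with a peak. The assigned peak farthest out was that of Kmt2e at 46.1 kb. Just outside lay a peak of 4.37 at 55.3 kb from Chd9 (chromosome 8, 90773009 to 90773065) and 3 peaks on the low-coordinate side of Arid1b, at 69.4, 85.8 and 86 kb. The last of these scored 13.63 and ranked 13 in the list (chromosome 17, 4908248 to 4908443). It lay over the start of the non-coding gene Gm34507, 23.5 bases from it, with a neighbour of 4.35 at 4908512 to 4908567. The 124 of its 196 bases that fall in the promoter window of Gm34507 hold no CAAAG on either strand and are 79.8% G and C. Arid1b was the nearest protein-coding gene, and the next, Tmem242, was 503 kb away.

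Of the 64 members without a peak, 8 had a peak within 50 kb that lay nearer to another gene. Kmt2b, the closest relative of Kmt2a, was 16.4 kb from a peak of 9.22 nearest to Proser3. Hdac3, the catalytic subunit of the NCoR complex, was 1.47 kb from one of 4.14 assigned to Diaph1, and Hdac10 2.87 kb from one of 4.14 assigned to Mapk12. The others were Chd3, Kdm8, Smarce1, Hdac1 and Smarcc1, at 19.4 to 33.7 kb. Smarce1 was 31.8 kb from the peak of Ccr7. Counting any peak within 50 kb, 22 members (28.2%) had one, against 15.5% of all genes, while the remaining 56 had none. The median distance from a member's body to the nearest peak was 194 kb, against 317 kb for all genes. On X lay 5 members and on Y 1, and none of these 6 had a peak. All but Smarca1 were erasers: Hdac6, Hdac8, Kdm5c and Kdm6a on X and Kdm5d on Y. The list held 15 peaks on X and 19 on Y.

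**Figure D5:**
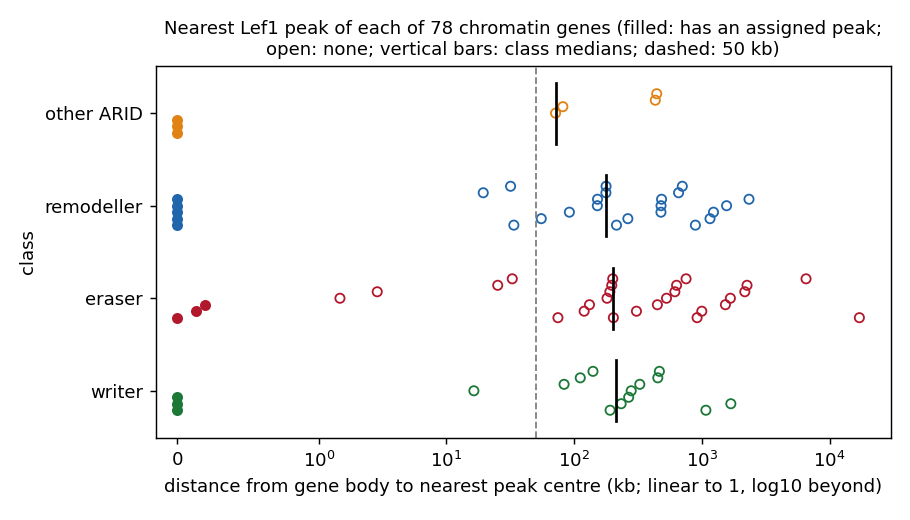
Distance from the body of each of the 78 chromatin genes to the nearest Lef1 peak centre (x axis, kb, linear to 1 and log10 beyond) by class (y axis); filled points have an assigned peak, vertical bars are class medians and the dashed line is 50 kb. Erasers spread the widest, from 0 to 17100 kb at Kdm5c on X, and the farthest eraser on an autosome was Hdac2 at 2170 kb. Hdac3 and Hdac10 are the open points nearest to 0.

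Other genes of the chromatin machinery, outside the symbol rule, came to 98 in a list written for this comparison. Peaks lay at 11 of them (11.2%, exact interval 5.74 to 19.2%), again against 6.68% of all genes. By class, 4 of 31 writers, 0 of 20 erasers and corepressors, 5 of 40 remodelling subunits and 2 of 7 DNA methylation genes had a peak. Those above the median score were Nsd3 (6.82), a methyltransferase of lysine 36 of histone H3, Ss18 (5.55), a BAF subunit, and Tet3 (4.99), which oxidises methylated cytosine. The density, 1.32 peaks per Mb (0.684 to 2.31), had an interval that includes that of all genes.

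Grouped by complex after their values were seen, 7 of 27 genes of BAF and PBAF had a peak: Arid1a, Arid1b, Arid2, Smarca4, Ss18, Dpf3 (4.40) and Bicral (4.08). That is 25.9% (exact interval 11.1 to 46.3%), at 4.07 peaks per Mb (1.95 to 7.49), where all protein-coding genes stood at 6.68% and 0.989 per Mb. As the groups were formed with these values in view, and the Arid genes make up 3 of the 7, nothing particular to the complex can be read from this. The smaller groups of KMT2 genes, with 2 of 5 (40%, 5.27 to 85.3%; 5.82 peaks per Mb), and of KDM3 genes with Jmjd1c, with 2 of 3 (66.7%, 9.43 to 99.2%; 9.55 peaks per Mb), stood higher than BAF and PBAF. NuRD had 1 of 14, Gatad2b (4.34), and Sin3 1 of 8, Arid4a. NCoR with Hdac3 had 0 of 6, PRC2 0 of 6, and Ep300 and Crebbp, which encode p300 and CBP, 0 of 2. The last 3 groups are so small that 0 leaves upper bounds of 45.9%, 45.9% and 84.2%.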

How the data were processed

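ChIP-seq for Lef1 was carried out on 1 library of wild-type and 1 of Lef1-deficient CD4+ T cells. FastQC, Bowtie2 2.3.4.1, MACS2 2.1.1 and the mm10 build are named in the submitters' processing notes, without parameters. The values are −log10 p-values of peaks, per the file headers, called with the Lef1-deficient library as control, per the labels. The peak numbers run from 26 to 33876, so the 2052 listed peaks are 6.06% of a longer set of calls, and the filter between is not given in the sources used here.

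Starts were raised by 1, assuming BED coordinates. Peak centres were assigned to the nearest RefSeq GRCm38.p6 protein-coding gene body within 50 kb. Where bodies overlapped, the gene with the nearer end took the peak. Territories were counted on a grid of 100 bp. Promoter windows, strands and starts came from a RefSeq table of the same assembly. Genes without an entry there enter no statement on starts, and for them only gene ends are given. Every member with a peak is named with its peaks, and other chromatin genes by a score above the median, except those named by complex. The members, classes and lists were chosen with earlier results of these data known. No test was run, since each group has 1 library, and shares carry 95% exact Clopper-Pearson intervals. The assignment was tested on simulated data. Alternatives were other distances, score thresholds, overlap rules and competing genes. Python 3.11.15, pandas 2.3.3 and scipy 1.17.1 were used.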

Additional observations from a re-analysis of the deposited data

How the results depend on the processing

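Of 60 repeats under 10 alternatives, 49 moved counts by no more than 1.5 times and ratios no further than their interval. The share of members with a peak stayed above that of all genes in all 10, with ratios of 2.29 to 3.31 against 2.69. The interval of the latter, 1.52 to 4.24, is that of the member share divided by the share of all genes, taken as fixed. The 10 include autosomes only (2.77), which was added after the data were seen. Merging peaks within 1 kb and measuring from the peak edge left the same 14 members and a ratio of 2.69. At the 2 score thresholds the ratios rest on 5 and 3 members, without intervals. With peaks above the median score, 5 members had 5 peaks: 1 writer, 1 eraser and 3 remodellers, namely Arid1a, Arid1b and Arid2. With a score of at least 5, 3 members had 3 peaks: 1 writer, 0 erasers and 2 remodellers, Arid1a and Arid2. Both leave fewer peaks by construction. When every gene body extended by 5 kb took the peaks in it, 5 erasers had a peak against 3, since Hdac3 and Hdac10 joined. The 14 members all kept a peak under every alternative but the 2 score thresholds. No paired analysis was possible because there is 1 library per group, and no replicate could be left out. The depth is unknown, so genes without a peak cannot be read as unbound.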
